A study of Mus musculus with 2 samples.

Results

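A set of 8 genes of epithelial sodium and water transport was followed in nuclei of newborn mouse ureters, and their unique molecular identifiers (UMIs, each standing for 1 captured RNA molecule) were read by cell type, by layer of the epithelium and by library. It holds Scnn1a, Scnn1b, Scnn1g, Hsd11b2, Aqp3, Nedd4l, Sgk1 and Atp1b1, 8 of the 32589 gene IDs in the count tables, picked by name, with earlier results of these data known. The study asked what the ΔN form of the transcription factor p63 (gene Trp63) does in the ureter epithelium. The DNp63cKO mice were Pax2-cre/+;DNp63fl/fl;R26mTmG/+, with a cre driver active in the nephric duct from which that epithelium grows and a reporter that switches colour where cre has acted. The control mice carry the genotype label wt, and whether they had the driver, the floxed alleles or the reporter is not given in the sources used here. At postnatal day 0, frozen ureters of 14 DNp63cKO mice and of 13 control mice were pooled, and each pool gave 1 single-nucleus library. Each group therefore has 1 library, there is no replicate and no test, and every difference below lies between 2 pools of mice.

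The epithelial sodium channel is built from α, β and γ subunits, encoded by Scnn1a, Scnn1b and Scnn1g, and lets sodium enter a cell through its outer, urine-facing membrane. Atp1b1 encodes the β subunit of the sodium pump, which carries that sodium out at the opposite face, and Aqp3 encodes a channel for water and glycerol in basal and lateral membranes. Aldosterone acts through the mineralocorticoid receptor and raises the kinase Sgk1, which phosphorylates the ubiquitin ligase Nedd4l and so slows removal of the channel from the membrane. Hsd11b2 inactivates glucocorticoids that would otherwise occupy the same receptor. The urothelium, the lining of the urinary tract, has basal cells that carry p63 and superficial cells that carry uroplakins, and amiloride-sensitive sodium transport is known in the bladder.

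Scnn1b (ENSMUSG00000030873) lies on mm10 chromosome 7, 121865038 to 121918514, plus strand. Scnn1g (ENSMUSG00000000216) lies on the same strand of that chromosome, 121734479 to 121768475, so that 96.6 kb and 0 protein-coding genes separate its end from the start of Scnn1b. Scnn1a (ENSMUSG00000030340) stands alone on chromosome 6, 125320659 to 125344943, plus strand. Aqp3 (ENSMUSG00000028435) is on chromosome 4, 41092722 to 41098183, and Atp1b1 (ENSMUSG00000026576) on chromosome 1, 164437109 to 164458355, both on the minus strand. Hsd11b2 (ENSMUSG00000031891) is on chromosome 8, 105518755 to 105523988, and Sgk1 (ENSMUSG00000019970) on chromosome 10, 21882184 to 21999903, both on the plus strand. Values below count UMIs over whole genes, with no split by exon or intron.

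The neighbouring Scnn1g and Scnn1b, which were both higher in DNp63cKO urothelium, are shown by the 250 bases before their RefSeq starts (GRCm38.p6, the assembly of mm10), beside those of Aqp3, which was lower. The windows are chr7:121864788-121865037 plus strand for Scnn1b, chr7:121734229-121734478 plus strand for Scnn1g and chr4:41098184-41098433 minus strand for Aqp3, each written 5′ to 3′ along its gene. Capitals mark matches of GGGCGG (the GC box), TATAAA (the TATA box) or CACCTG (an E-box) on either strand.
Scnn1b: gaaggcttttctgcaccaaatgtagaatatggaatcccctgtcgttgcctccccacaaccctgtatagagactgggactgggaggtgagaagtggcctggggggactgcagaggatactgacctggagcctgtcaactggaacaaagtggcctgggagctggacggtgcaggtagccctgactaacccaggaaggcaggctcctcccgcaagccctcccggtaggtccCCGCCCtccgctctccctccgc
Scnn1g: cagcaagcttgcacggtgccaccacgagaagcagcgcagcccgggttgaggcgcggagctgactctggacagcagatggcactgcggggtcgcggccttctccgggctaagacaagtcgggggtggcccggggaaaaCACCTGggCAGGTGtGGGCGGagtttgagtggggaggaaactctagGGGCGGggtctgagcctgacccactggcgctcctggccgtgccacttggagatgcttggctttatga
Aqp3: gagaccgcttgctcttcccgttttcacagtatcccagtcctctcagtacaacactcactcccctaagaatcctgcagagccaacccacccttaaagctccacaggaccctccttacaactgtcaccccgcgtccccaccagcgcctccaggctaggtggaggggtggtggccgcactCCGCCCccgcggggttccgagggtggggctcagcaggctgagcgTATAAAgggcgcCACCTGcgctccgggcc

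The windows of the neighbours Scnn1b and Scnn1g differ in these motifs. Scnn1b holds 1 GC box, read on the minus strand at position -22, where -1 is the base before the start and a position is that of the match's first base. Scnn1g holds GC boxes at -98 and -67 and CACCTG at -113 (plus strand) and -105 (minus strand). Aqp3 holds a GC box at -73 on the minus strand, TATAAA at -29 and CACCTG at -17, and no marked match overlaps another. Of 32851 promoters of the same length in the RefSeq table, 32.7% hold GGGCGG, 17.2% CACCTG and 12.4% TATAAA. The windows held no TGTTCT (a core of the glucocorticoid and mineralocorticoid receptor element, in 16.1% of promoters), no CCAAT (33.8%) and no ACCGGTT (0.831%), which says only that these letters are not there. G and C make up 60.8% of the Scnn1b window, 65.2% of the Scnn1g window and 64.0% of the Aqp3 window. The table held promoters for 5 of the 8 genes.

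The DNp63cKO library held 5528 nuclei and 9859451 UMIs (median 1298 UMIs per nucleus), and the control library 9062 nuclei and 16063644 UMIs (median 1124.5); 58 barcodes occur in both. After filtering, 5172 DNp63cKO and 8373 control nuclei were grouped into 16 clusters without the transport genes, and 5 clusters were named urothelium-like. These hold 2240 DNp63cKO nuclei (median 1468.5 UMIs) and 4906 control nuclei (median 1243 UMIs). Uroplakin genes marked them: Upk1b stood at 4469 counts per 1000000 UMIs of the class (CPM) in DNp63cKO and 4593 CPM in control. Clusters 2 and 10 were superficial-like, clusters 4 and 7 basal-like and cluster 3 cycling, a mix of dividing nuclei. The libraries split unevenly within them: cluster 2 holds 1135 DNp63cKO and 141 control nuclei, and cluster 10 holds 142 and 1406, so that most superficial-like nuclei of each library lie in a different cluster. Cluster 2 may reflect its library rather than a cell type. It failed the naming check against all other nuclei, with 0 urothelial markers and 1 of another class among its 10 leading genes (which include Scnn1b), and passed against nuclei of other classes. Values are therefore also given by numbered cluster.

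Trp63, the targeted gene, had 139 CPM in DNp63cKO and 192 CPM in control nuclei of the urothelium-like class. In basal-like nuclei, where p63 acts, it had 244 CPM in DNp63cKO and 313 CPM in control. The basal keratin Krt5 had 476 CPM in DNp63cKO and 325 CPM in control basal-like nuclei, and Krt14 had 351 and 41.1 CPM. UMIs are not split by isoform and the sources used here do not give the deleted exons, so the Trp63 level is no check of the deletion. Free RNA, released from broken cells and caught with other nuclei, adds to every level: fibroblast-like nuclei, which should lack Trp63, had 38.4 CPM in DNp63cKO and 69.0 CPM in control. The summed level of 4 uroplakin genes gave the other order between libraries: in fibroblast-like nuclei it was 39.0% of its level over all nuclei in DNp63cKO and 28.1% in control.

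In urothelium-like nuclei, the β and γ channel subunits were past a 1.5-fold difference and higher in DNp63cKO, Atp1b1 stood just short of it, Aqp3 and Sgk1 were lower by less than 1.5-fold, and Nedd4l and Scnn1a were close to equal. Of the 7 genes with 50 or more UMIs, 2 were past 1.5-fold higher and 0 lower. Over all 12827 genes measured that way, 6.91% were past 1.5-fold in either direction, with 3.77% higher and 3.13% lower. The 7 genes had a median log2 ratio of 0.04 and all genes 0.00014. A log2 ratio here is DNp63cKO over control after adding 5 CPM to each, and its 95% interval covers counting error only, is computed without the added 5 CPM and says nothing of the spread between pools. Levels of the 8 genes are compared with each other per kb of gene span, since longer genes can give more tags. On that scale Aqp3 was highest, at 97.3 CPM per kb in DNp63cKO and 133 in control, and Atp1b1 followed at 18.9 and 12.6. Among channel subunits, Scnn1g had 10.2 CPM per kb in DNp63cKO and 6.53 in control, Scnn1b 3.69 and 1.53, and Scnn1a 0.348 and 0.333.

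Scnn1b, the β subunit, had 840 UMIs or 197 CPM (95% Poisson interval 184 to 211) in DNp63cKO urothelium-like nuclei, against 737 UMIs or 81.6 CPM (75.8 to 87.7) in control. The intervals did not overlap and the log2 ratio was 1.22 (1.13 to 1.42). Without cluster 2, which removes 1135 of the 2240 DNp63cKO but 141 of the 4906 control nuclei, it was 0.17, and with the DNp63cKO clusters weighted to the control's shares it was 0.33. Of the DNp63cKO urothelial UMIs of Scnn1b, 80.7% came from cluster 2, against 4.07% of those in control. Part of this is the size of the cluster. It held 2489707 of 4260984 urothelial UMIs of all genes in DNp63cKO and 270216 of 9030543 in control. Of Nedd4l UMIs it held 61.7% in DNp63cKO and 3.53% in control. The difference of the class as a whole thus rests on that cluster.

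Within the superficial-like layer, Scnn1b stood at 257 CPM (238 to 276; 708 UMIs) in DNp63cKO and 74.1 CPM (66.4 to 82.5; 333 UMIs) in control, a log2 ratio of 1.73 (1.60 to 1.98). Basal-like nuclei had 85.9 CPM (68 UMIs) in DNp63cKO and 95.6 CPM (328 UMIs) in control, with a ratio of -0.15 (-0.55 to 0.23). Cycling nuclei had 89.9 and 68.7 CPM, with a ratio of 0.37 (-0.11 to 0.89). The order of the layers also differed between libraries. In DNp63cKO the superficial-like level was above the basal-like one by 1.53 on the log2 scale (1.22 to 1.96), while in control it was below it (-0.35, -0.59 to -0.14). Whether the superficial and basal differences themselves differ cannot be tested with 1 library per group.

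Both superficial clusters gave a higher Scnn1b level in DNp63cKO, though the few nuclei of the other library make each comparison loose. Cluster 2 had 272 CPM (678 UMIs) in DNp63cKO and 111 CPM (30 UMIs) in control, a log2 ratio of 1.26 (0.77 to 1.87). Cluster 10 had 112 CPM (30 UMIs) in DNp63cKO and 71.8 CPM (303 UMIs) in control, a ratio of 0.61 (0.05 to 1.19). The share of all genes past 1.5-fold was also larger inside single clusters, at 21.1% in cluster 2 and 24.8% in cluster 10. Basal clusters 4 and 7 had 89.2 and 75.8 CPM in DNp63cKO, against 94.2 and 98.4 CPM in control, and neither ratio was past 1.5-fold, where 14.6% and 21% of all genes were.

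Scnn1g, the γ subunit, followed the same outline with a smaller difference. It had 1484 UMIs or 348 CPM in DNp63cKO and 2006 UMIs or 222 CPM in control nuclei of this class, a log2 ratio of 0.64 (0.55 to 0.75). Superficial-like nuclei had 437 CPM (413 to 463) in DNp63cKO and 248 CPM (233 to 263) in control, a ratio of 0.81 (0.70 to 0.94). Basal-like nuclei had 187 CPM in DNp63cKO and 211 CPM in control, a ratio of -0.17 (-0.44 to 0.08), and cycling nuclei 183 and 154 CPM, a ratio of 0.24. Here the superficial-like level lay above the basal-like one in both libraries, by 1.20 (0.98 to 1.48) on the log2 scale in DNp63cKO and by 0.23 (0.09 to 0.37) in control. Cluster 2 alone had 445 CPM in DNp63cKO and 204 CPM in control (ratio 1.11, 0.74 to 1.55) and cluster 10 had 370 and 250 CPM (0.55, 0.25 to 0.86). Without cluster 2 the ratio of the whole class turned to -0.06, and without cluster 10 it was 0.80. Cluster 2 held 74.6% of DNp63cKO and 2.74% of control Scnn1g UMIs, and cluster 10 held 6.67% and 52.7%. Of the UMIs of all genes, cluster 10 held 267730 of 4260984 in DNp63cKO and 4221953 of 9030543 in control.

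**Figure D1:**
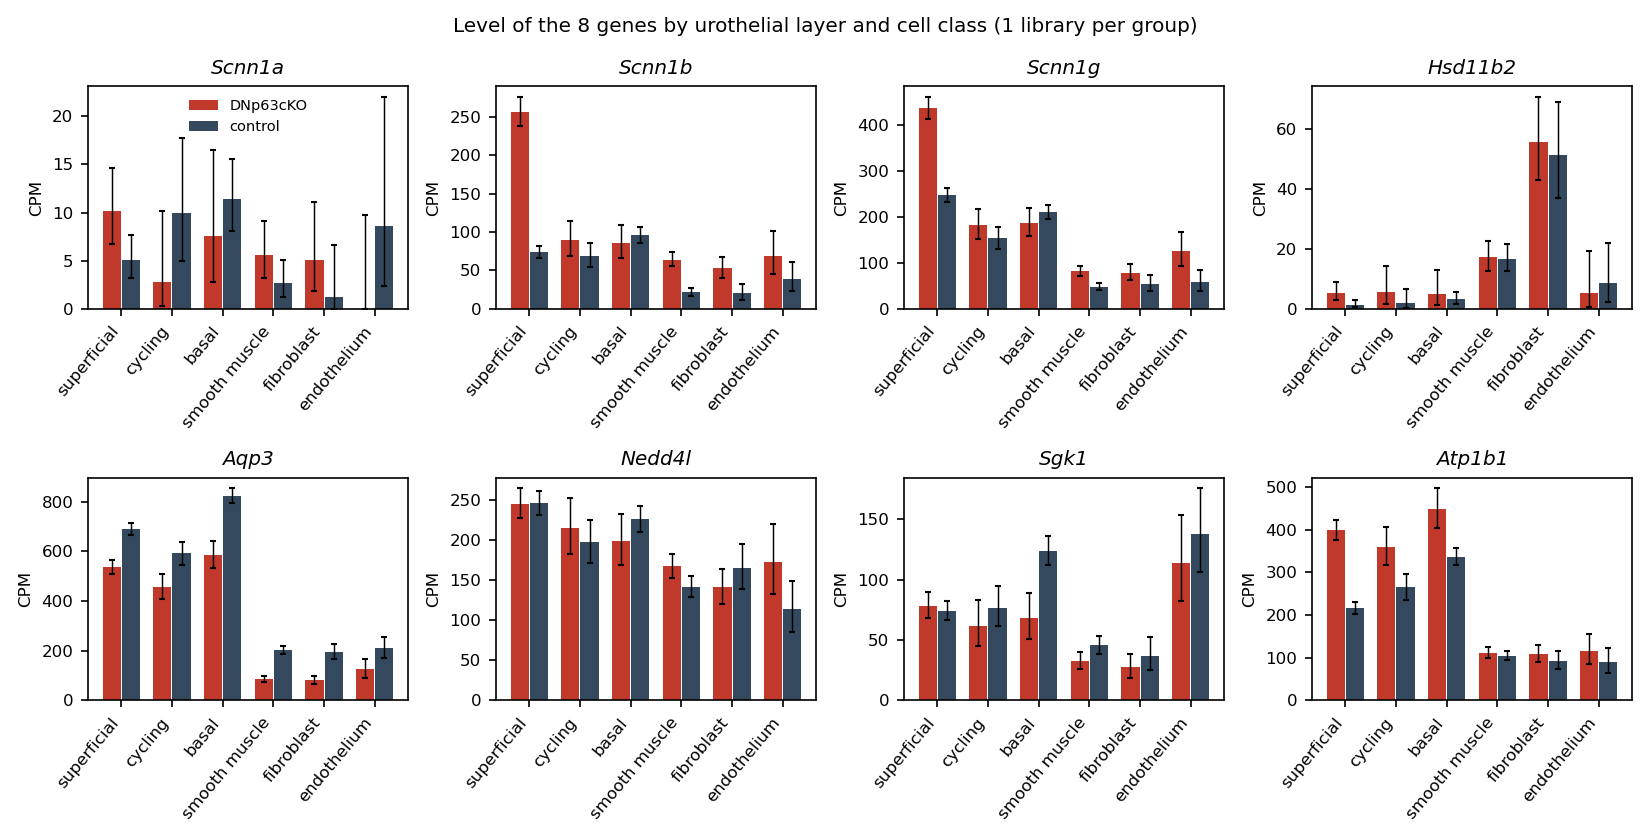
Level of each of the 8 genes in counts per 1000000 UMIs (CPM, y axis, each panel with its own scale) in the 3 urothelial layers and 3 other cell classes (x axis), DNp63cKO in red and control in dark blue; bars are the level of 1 library and error bars the exact 95% Poisson interval, which covers counting error only. Scnn1b has 257 CPM in DNp63cKO and 74.1 CPM in control superficial-like nuclei, while its basal-like bars overlap, and Hsd11b2 is highest in fibroblast-like nuclei of both libraries.

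Scnn1a, the α subunit that the channel is usually built around, was near the limit of detection. It had 36 UMIs or 8.45 CPM in DNp63cKO and 73 UMIs or 8.08 CPM in control nuclei of this class, a log2 ratio of 0.04 (-0.55 to 0.66). In superficial-like nuclei it had 10.2 CPM (28 UMIs) in DNp63cKO and 5.12 CPM (23 UMIs) in control, and in basal-like nuclei 7.58 CPM (6 UMIs) and 11.4 CPM (39 UMIs). Layers or classes next to each other in the order of its levels had overlapping intervals in both libraries. Layers further apart in that order did not always: in control the basal-like interval (8.08 to 15.5) lay above the superficial-like one (3.25 to 7.68). Superficial over basal was -0.69 (-1.96 to -0.37) in control and 0.27 (-0.88 to 1.98) in DNp63cKO. Its superficial log2 ratio was 0.58 (0.14 to 1.85) with the added 5 CPM, just within 1.5-fold, while the levels without it are 1.98-fold apart.

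**Figure D2:**
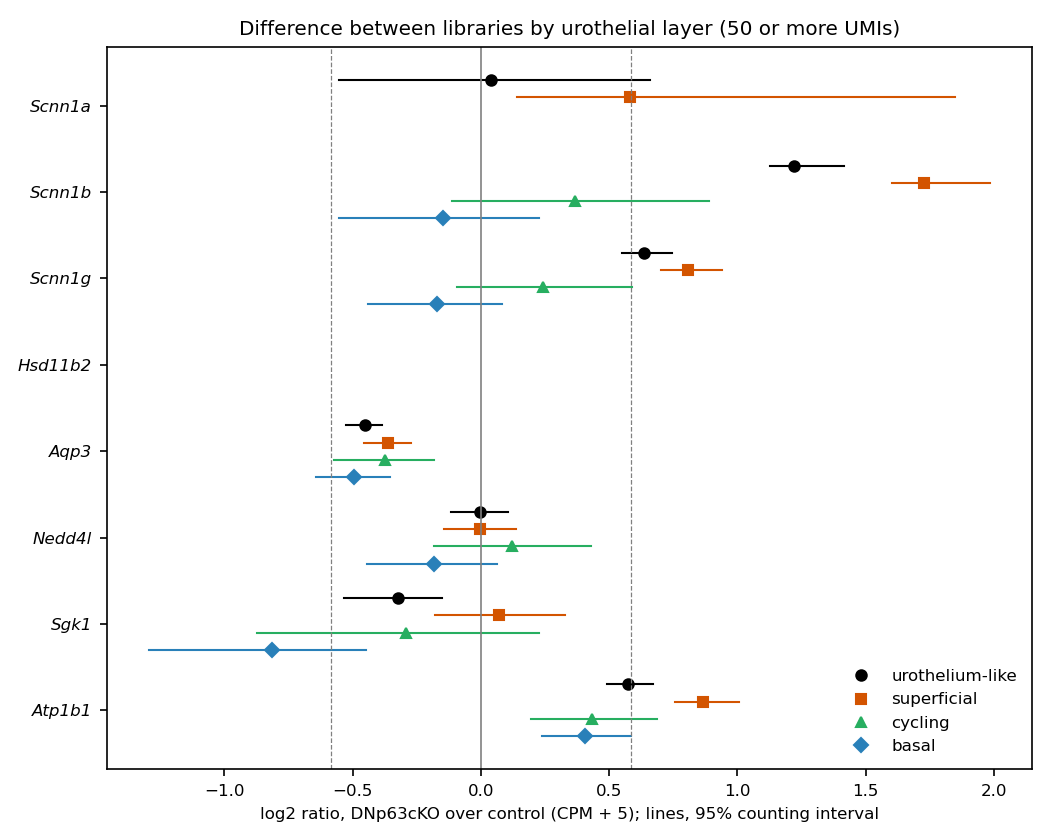
Log2 ratio of DNp63cKO over control (x axis, after adding 5 CPM) for each gene with 50 or more UMIs in all urothelium-like nuclei, and in its superficial, cycling and basal layers; horizontal lines are 95% counting intervals and dashed lines mark 1.5-fold. Scnn1b lies at 1.73 in superficial-like and -0.15 in basal-like nuclei, Sgk1 at 0.07 and -0.81, Aqp3 lies left of 0 in each layer, and Hsd11b2 has no point because it had too few UMIs.

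Shares of nuclei gave the same picture when depth was held equal. After each nucleus was thinned to 700 UMIs, which left out 165 DNp63cKO and 840 control urothelium-like nuclei, Scnn1b was found in 10.7% of DNp63cKO nuclei (Clopper-Pearson 95% interval 9.40 to 12.1) and 5.39% of control nuclei (4.71 to 6.13). Before thinning the shares were 24.5% and 12.5%. Scnn1g was found in 19.9% of thinned DNp63cKO nuclei and 13.7% of thinned control nuclei. As a background for free RNA, fibroblast-like nuclei (median 1059 UMIs in DNp63cKO and 818 in control) thinned alike had a Scnn1b UMI in 3.85% and 1.33% of nuclei, and a Scnn1g UMI in 4.88% and 2.84%. The urothelial shares lay above these in both libraries. Unthinned, 1692 of 2240 DNp63cKO and 4295 of 4906 control nuclei had 0 Scnn1b UMIs, and the most in 1 nucleus was 10 in DNp63cKO and 6 in control.

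Few nuclei showed the subunits together at this depth. Of 222 thinned DNp63cKO nuclei with Scnn1b, 55 also had Scnn1g (24.8%, 19.2 to 31.0), against 19.3% (17.5 to 21.2) of those without Scnn1b. In control 21 of 219 nuclei with Scnn1b had Scnn1g (9.59%, 6.03 to 14.3), against 14.0% (12.9 to 15.1) of those without. The intervals overlap in each library, so an excess of double detection was not shown at this depth. Scnn1a was found in 13 of 2075 thinned DNp63cKO and 26 of 4066 thinned control nuclei, too few to read its overlap with the other subunits.

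The nearest gene on the opposite strand bears on how Scnn1b is read. Cog7, on the minus strand, overlaps 39.2 kb of Scnn1b, and whether the counting used strand is not given in the sources used here. Cog7 had 62.9 CPM in DNp63cKO and 83.2 CPM in control nuclei of this class, a log2 ratio of -0.38, and 73.6 and 114 CPM in superficial-like nuclei. The Cog7 ratio thus lay on the other side of 0 from that of Scnn1b. Whether Cog7 RNA enters the Scnn1b count was not tested. Atp1b1 overlaps Nme7 by 617 bases, and Nme7 had 43.7 CPM in DNp63cKO and 38.5 CPM in control.

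Because Scnn1b and Scnn1g also mark the collecting duct of the kidney, markers of that duct were read beside them. Of 10 listed genes, 7 had a UMI in DNp63cKO urothelium-like nuclei, summing to 16.9 CPM, and 6 in control, summing to 2.55 CPM. In cluster 2 the list summed to 20.9 CPM in DNp63cKO (6 of 10 genes) and to 0 in control. The control part of cluster 2 held only 141 nuclei and 270216 UMIs, too few to read that 0 as absence. Aqp2, the water channel that defines principal cells, had 10 UMIs in DNp63cKO and 0 in control, all 10 in cluster 2, within the urothelium-like class; DNp63cKO fibroblast-like nuclei had a further 6 (5.12 CPM) and control ones 0. Fxyd4, a pump regulator of the collecting duct, had 38 UMIs in DNp63cKO and 12 in control urothelium-like nuclei. Of the intercalated-cell genes on the list, Foxi1 and Atp6v1g3 had 0 UMIs in urothelium-like nuclei of both libraries. Slc4a1 had 5 UMIs in DNp63cKO and 4 in control, and Slc26a4 had 0 in DNp63cKO and 1 in control. DNp63cKO fibroblast-like nuclei had 11.1 CPM of the list and control ones 2.38 CPM. A list of 10 nephron genes summed to 48.3 CPM in DNp63cKO and 16.2 CPM in control (Umod at 0 in both), and a list of 6 mesothelium genes to 848 and 381 CPM, of which Msln gave 449 and 70.2 CPM and Upk3b, which is also a uroplakin of the urothelium, 397 and 309.5 CPM. Bnc1 was at 0 in both, and Gpm6a had 0.469 and 1.44 CPM. In basal-like nuclei, where Scnn1b and Scnn1g were not higher, the collecting duct list summed to 12.6 CPM in DNp63cKO and 2.04 CPM in control, the nephron list to 45.5 and 18.9 CPM and the mesothelium list to 433 and 248 CPM. The nephron list in fibroblast-like nuclei summed to 16.2 CPM in DNp63cKO and 19.0 CPM in control. The part of these cell types in the Scnn1b and Scnn1g ratios was not tested.

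**Figure D3:**
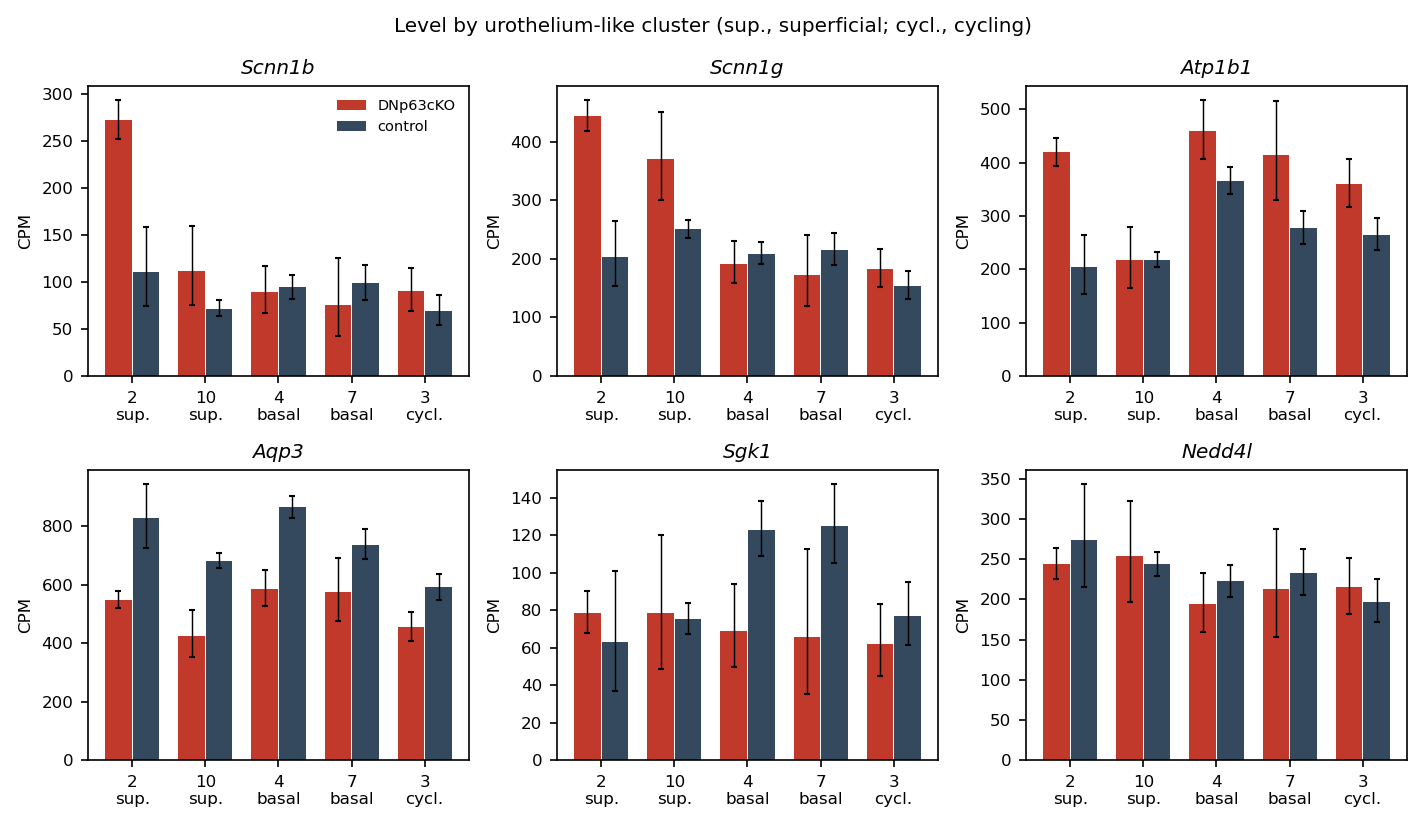
Level in CPM (y axis) of 6 of the genes in each of the 5 urothelium-like clusters (x axis), DNp63cKO in red and control in dark blue, with exact 95% Poisson intervals. Scnn1b is highest in DNp63cKO nuclei of cluster 2 at 272 CPM, and the Aqp3 bar of DNp63cKO is below that of control in each of the 5 clusters.

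Aqp3, the water and glycerol channel, was lower in DNp63cKO in every urothelial cluster. It had 2265 UMIs or 532 CPM in DNp63cKO and 6578 UMIs or 728 CPM in control nuclei of this class, a log2 ratio of -0.45 (-0.52 to -0.39), short of 1.5-fold. By layer the levels were 536 CPM in DNp63cKO and 690 CPM in control superficial-like nuclei, 584 and 823 CPM in basal-like nuclei, and 455 and 591 CPM in cycling nuclei. The ratios were -0.36, -0.49 and -0.37. Across the 5 clusters they ran between -0.67 and -0.35, and each of the 5 intervals lay below 0. With estimated free RNA subtracted, the ratio of the class was closer to 0, at -0.23. That setting was run for the class and not by cluster. Aqp3 was found in 26.8% of thinned DNp63cKO nuclei and 34.9% of thinned control nuclei. In both libraries it was lower in superficial-like than in basal-like nuclei, by 0.12 on the log2 scale in DNp63cKO (-0.27 to 0.03, an interval that spans 0) and by 0.25 in control (-0.33 to -0.18).

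Outside the epithelium the Aqp3 ratios lay further from 0. Fibroblast-like nuclei had 81.9 CPM in DNp63cKO and 195 CPM in control (log2 ratio -1.20, -1.63 to -0.88) and smooth-muscle-like nuclei 86.3 and 201 CPM (-1.18, -1.44 to -1.01). Endothelium-like nuclei had 125 and 209 CPM (-0.72). Over all nuclei Aqp3 had 299.6 CPM in DNp63cKO and 551 CPM in control, a ratio of -0.87 (-0.94 to -0.82). Urothelium-like nuclei made up 43.3% of DNp63cKO and 58.6% of control nuclei, so this last value also holds their share.

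Atp1b1, the pump's β subunit, was higher in DNp63cKO in most urothelial clusters. It had 1713 UMIs or 402 CPM in DNp63cKO and 2424 UMIs or 268 CPM in control, a log2 ratio of 0.57 (0.49 to 0.67), just under 1.5-fold. Superficial-like nuclei had 399.6 CPM in DNp63cKO and 217 CPM in control, past 1.5-fold with a ratio of 0.87 (0.76 to 1.01). Basal-like nuclei had 448 and 337 CPM (0.41, 0.24 to 0.59) and cycling nuclei 359.6 and 265 CPM (0.43, 0.19 to 0.69). In contrast to Scnn1b, the difference ran the same way in each layer. By cluster it was highest in cluster 2, with 419 CPM in DNp63cKO and 204 CPM in control, while cluster 10 had 217 and 218 CPM (-0.01, -0.42 to 0.38). Atp1b1 was higher in 4 of 5 clusters, each with an interval above 0, and without cluster 2 the class ratio was 0.47.

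Sgk1, the kinase that aldosterone raises, was lower in DNp63cKO basal-like nuclei. These had 54 UMIs or 68.2 CPM (51.2 to 89.0) in DNp63cKO and 424 UMIs or 124 CPM (112 to 136) in control, a log2 ratio of -0.81 (-1.29 to -0.45). Superficial-like nuclei had 78.3 CPM in DNp63cKO and 74.4 CPM in control (0.07, -0.18 to 0.33). In control the basal-like level lay above the superficial-like one, whereas in DNp63cKO the layers were not apart: superficial over basal was 0.19 (-0.24 to 0.66) in DNp63cKO and -0.70 (-0.94 to -0.52) in control. Both basal clusters gave this: 69.0 CPM in DNp63cKO and 123 CPM in control for cluster 4, and 65.7 and 125 CPM for cluster 7. For the urothelium-like class as a whole Sgk1 had 73.7 CPM in DNp63cKO and 93.3 CPM in control, a ratio of -0.32 (-0.53 to -0.15). Lower values in DNp63cKO were not confined to the epithelium. The ratio was -0.43 (-0.87 to -0.10) in smooth-muscle-like nuclei, where clusters 1, 8 and 11 had -0.46, -0.80 and 0.04. It was -0.38 (-1.19 to 0.33) in fibroblast-like and -0.26 (-0.87 to 0.31) in endothelium-like nuclei, and -0.51 (-0.70 to -0.40) over all nuclei.

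By layer, 3 of 7 genes with 50 or more UMIs were past 1.5-fold in superficial-like nuclei (Scnn1b, Scnn1g and Atp1b1, all higher), where 11.8% of all genes were past it and 6.95% past it and higher. In basal-like nuclei 1 of 6 was (Sgk1, lower), with 13.1% of all genes past it and 6.9% past it and lower. In cycling nuclei 0 of 6 were, with 10.8% of all genes past it. The share in basal-like nuclei, 1 of 6, is near the background.

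Nedd4l, the ligase that marks the channel for removal, was level between the libraries. It had 231 CPM (986 UMIs) in DNp63cKO and 232 CPM (2097 UMIs) in control nuclei of this class, a log2 ratio of -0.0049 (-0.12 to 0.10). By layer the levels were 245 CPM in DNp63cKO and 246 CPM in control superficial-like nuclei, 198 and 226 CPM in basal-like nuclei, and 215 and 197 CPM in cycling nuclei, and each interval of the ratio spanned 0. In fibroblast-like nuclei its level was lower, with 141 CPM in DNp63cKO and 165 CPM in control. Not every other class was lower. Control pericyte-like nuclei had 269.9 CPM (173 to 402) and control macrophage-like nuclei 269.5 CPM (154 to 438), with wide intervals. The small nephron-like cluster had 512 CPM in DNp63cKO and 324 CPM in control.

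Hsd11b2, the enzyme that guards the mineralocorticoid receptor, had its highest level outside the epithelium in both libraries. Urothelium-like nuclei had 23 UMIs or 5.40 CPM in DNp63cKO and 19 UMIs or 2.10 CPM in control. Fibroblast-like nuclei had 65 UMIs or 55.4 CPM (42.8 to 70.6) in DNp63cKO and 43 UMIs or 51.1 CPM (37.0 to 68.9) in control, a log2 ratio of 0.11 (-0.46 to 0.71). Within each library the fibroblast-like level was well above the urothelial one, at 1027% of it in DNp63cKO (95% interval 629.6 to 1731%) and 2431% in control (1387 to 4417%). The UMIs came from many nuclei: 63 of 883 DNp63cKO and 36 of 809 control fibroblast-like nuclei had at least 1, and none had more than 2. Smooth-muscle-like nuclei had 17.2 CPM in DNp63cKO and 16.7 CPM in control. Over all nuclei Hsd11b2 had 15.9 CPM in DNp63cKO and 8.83 CPM in control (0.60), while neither of the classes with the most UMIs of it differed past 1.5-fold, and fibroblast-like nuclei made up 17.1% of DNp63cKO and 9.66% of control nuclei.

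Fibroblast-like, smooth-muscle-like and endothelium-like nuclei also carried Scnn1b, Scnn1g and Aqp3, each at a lower level than the urothelium-like class as a whole. Small classes reached the basal-like Scnn1b level on few UMIs. Macrophage-like nuclei had 114 CPM (9 UMIs) in DNp63cKO and 101 CPM (6 UMIs) in control. Neuron-like nuclei had 116 CPM (7 UMIs) and 58.8 CPM (2 UMIs). Among genes with 50 or more UMIs, 2 of 7 were past 1.5-fold in fibroblast-like nuclei (Scnn1b higher, Aqp3 lower; 7.91% of all genes) and 3 of 7 in smooth-muscle-like nuclei (Scnn1b and Scnn1g higher, Aqp3 lower; 5.04% of all genes). Scnn1b had 52.9 CPM (62 UMIs) in DNp63cKO and 20.2 CPM (17 UMIs) in control fibroblast-like nuclei, a log2 ratio of 1.20, close to that of the urothelium. In smooth-muscle-like nuclei it had 64.2 and 22.1 CPM (1.35), and 1 DNp63cKO nucleus there held 17 of its 183 UMIs. Of their clusters, cluster 11 had 104 CPM (89 UMIs) in DNp63cKO and 21.1 CPM (12 UMIs) in control (2.07, 1.43 to 3.31). The Scnn1b ratio was 0.69 in cluster 1 and 1.16 in cluster 8. In endothelium-like nuclei 2 of 5 genes were past 1.5-fold (Scnn1g with 127 CPM in DNp63cKO and 58.1 CPM in control, Aqp3 at 125 and 209), where 13.3% of all genes were.

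Levels outside the urothelium were set beside those of superficial urothelial genes, which show what free RNA brings into other nuclei. The uroplakin genes and Psca, made by superficial urothelium, stood in fibroblast-like nuclei at 19.5 to 26.1% of their urothelial level over both libraries. Scnn1b stood at 26.8% in DNp63cKO and 24.8% in control, and Scnn1g at 22.8% and 24.6%. Aqp3 stood at 15.4% (12.4 to 18.9) in DNp63cKO, below that range, and 26.8% in control. Atp1b1 stood at 27.1% (22.5 to 32.5) in DNp63cKO and 34.6% (27.2 to 43.3) in control. Sgk1 at 37.0% and 39.5%, and Nedd4l at 60.8% and 71.2%, lay above the range, and endothelium-like nuclei had more Sgk1 than the urothelium, with 114 CPM in DNp63cKO and 138 CPM in control. In smooth-muscle-like nuclei the uroplakin genes and Psca stood at 15.9 to 22.9% in DNp63cKO and 15.7 to 19.7% in control. Scnn1b lay above those ranges there, at 32.6% (27.6 to 38.2) in DNp63cKO and 27.05% in control. Scnn1g stood at 23.5% and 21.5%, and Aqp3 at 16.2% in DNp63cKO and 27.6% (25.5 to 29.9) in control. The source of these smooth-muscle-like levels was not tested. No expression of Scnn1b, Scnn1g or Aqp3 by fibroblasts is read from the fibroblast-like values. How far free RNA sets the difference between the libraries in the other classes was not tested.

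**Figure D4:**
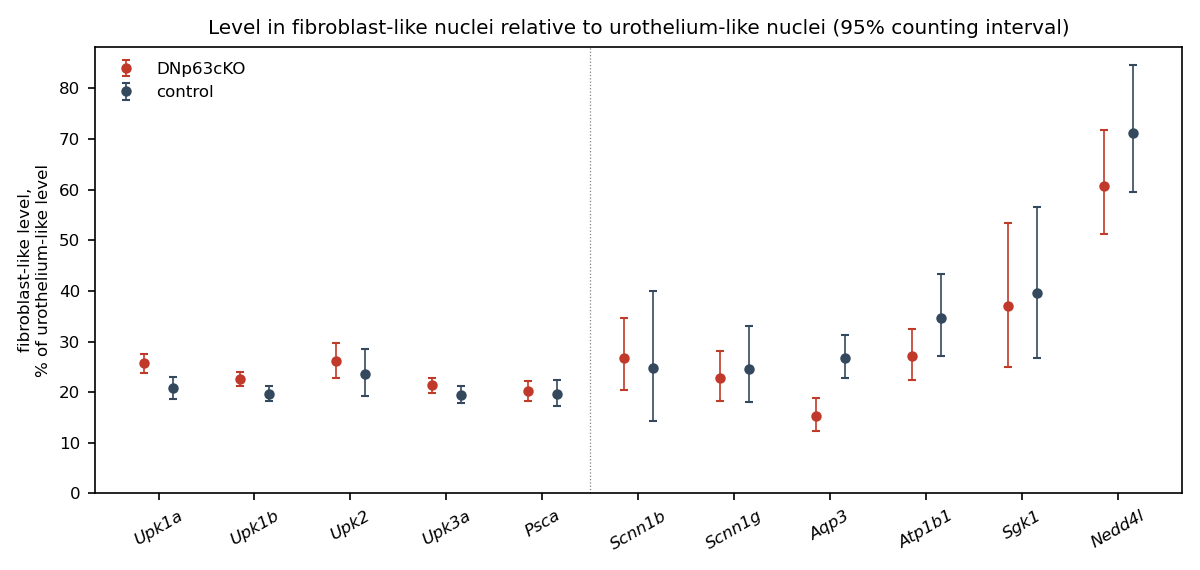
Level in fibroblast-like nuclei as a percent of the level in urothelium-like nuclei (y axis) for 5 superficial urothelial genes, left of the dotted line, and 6 of the transport genes (x axis), DNp63cKO in red and control in dark blue, with 95% counting intervals. The uroplakins and Psca lie between 19.5 and 26.1%, Scnn1b and Scnn1g near them, and Nedd4l at 60.8% in DNp63cKO and 71.2% in control.

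A wider list of 70 genes of hormone signalling, channel processing, the sodium pump, aquaporins and ion transport was read beside the 8. In urothelium-like nuclei 51 had 50 or more UMIs, of which 2 were past 1.5-fold higher and 2 lower, beside 3.77% higher and 3.13% lower over all genes, so that the list's share is near the background. Their median log2 ratio was -0.06. Both of the lower genes carry ions across the cell membrane: Trpv4, a stretch-sensitive calcium channel, had 61.3 CPM in DNp63cKO and 103 CPM in control (-0.70, -0.95 to -0.55), and Slc12a7, a potassium-chloride cotransporter, 196 and 307 CPM (-0.63, -0.76 to -0.54). Slc12a7 was lower in 5 of 5 clusters and Trpv4 in 4 of 5. The Trpv4 levels were 145 CPM in DNp63cKO and 159 CPM in control basal-like nuclei, and 23.6 and 47.0 CPM in superficial-like nuclei. Basal-like nuclei made up 25.8% of the urothelium-like nuclei in DNp63cKO and 52.5% in control, so the ratio of the class also holds their share. Of the higher genes, Fxyd4 had 8.92 and 1.33 CPM (1.14; interval without the added 5 CPM 1.78 to 3.82), and Piezo2, a touch channel, 22.8 and 13.2 CPM (0.61, 0.39 to 1.19). Piezo2 had 431 CPM in DNp63cKO and 406 CPM in control fibroblast-like nuclei, and the part of free RNA in its urothelial level was not tested. By layer, 5 of 44 measured list genes were past 1.5-fold higher and 3 lower in superficial-like nuclei, where 11.8% of all genes were past it. In basal-like nuclei 1 of 43 was higher and 4 lower, where 13.1% of all genes were past it. Group counts below are for the class as a whole unless a layer is named.

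Of hormone signalling, 12 of 14 genes were measured in the class as a whole and 0 were past 1.5-fold there. In superficial-like nuclei 2 of 11 measured were past it and higher and 1 lower, where 11.8% of all genes were past it. In basal-like nuclei 1 of 11 was higher and 1 lower, where 13.1% of all genes were past it. The kinase Pdpk1, which activates Sgk1, had 142 CPM in DNp63cKO and 149 CPM in control (-0.07), and the receptor chaperone Fkbp4 had 92.9 and 95.3 CPM (-0.04). Nr3c2, the mineralocorticoid receptor, had 29.6 CPM in DNp63cKO and 36.3 CPM in control (-0.26, -0.60 to 0.0040), and Nr3c1, the glucocorticoid receptor, 73.9 and 86.2 CPM. By layer, Nr3c2 had 17.7 CPM (14 UMIs) in DNp63cKO and 31.8 CPM (109 UMIs) in control basal-like nuclei. In superficial-like nuclei it had 37.0 and 42.3 CPM.

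Of the genes that process the channel all 10 were measured in the class as a whole and 0 were past 1.5-fold there, with a median log2 ratio of -0.11. In superficial-like nuclei 0 of 10 were past it, beside 11.8% of all genes. In basal-like nuclei 1 of 9 was, and lower, beside 13.1% of all genes. The activating protease Furin had 87.3 CPM in DNp63cKO and 108 CPM in control (-0.29, -0.48 to -0.13), and the protease St14 129 and 148 CPM (-0.19, -0.34 to -0.05). The protease inhibitor Spint1 had 239 and 289 CPM (-0.27, -0.38 to -0.17), and in basal-like nuclei 167 CPM in DNp63cKO and 256 CPM in control. The proteases Prss8 and Tmprss2 had 115 CPM in DNp63cKO and 98.1 CPM in control (0.22), and 1644 and 1540.0 CPM (0.09). The inhibitor Spint2 had 662 and 710.1 CPM (-0.10). Nedd4, the close relative of Nedd4l, had 1034 and 1072 CPM (-0.05).

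Of the pump and its regulators 7 of 12 were measured, of which only Fxyd4 was past 1.5-fold. Atp1b3 had 134 CPM in DNp63cKO and 124 CPM in control (0.11) and Fxyd3 255 and 268 CPM (-0.07). Of the aquaporins and urea transporters 4 of 10 were measured and 0 were past 1.5-fold, and the urea transporter Slc14a1 had 211 and 245 CPM (-0.21). Of 24 other channels, cotransporters and WNK kinases 18 were measured, 1 past 1.5-fold higher and 2 lower. The sodium-potassium-chloride cotransporter Slc12a2 had 272 CPM in DNp63cKO and 263 CPM in control (0.04), and the magnesium channel Trpm7 had 248 and 204 CPM (0.28).

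**Figure D5:**
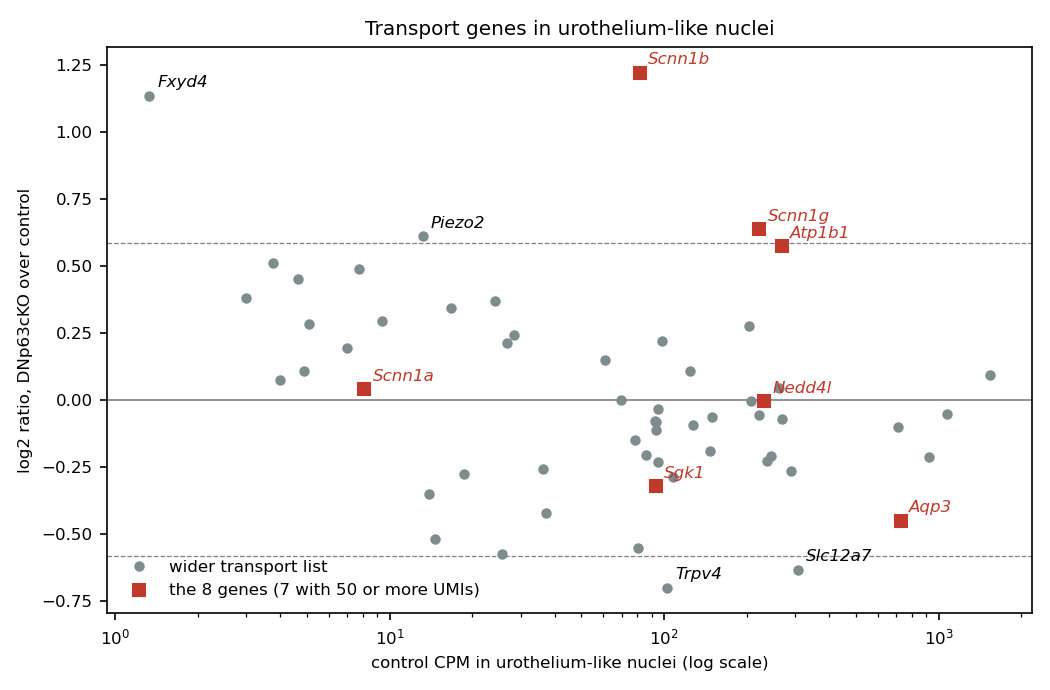
Log2 ratio of DNp63cKO over control (y axis, after adding 5 CPM) against the control level in CPM on a log scale (x axis) in urothelium-like nuclei, for the 51 measured genes of the wider transport list (grey circles) and 7 of the 8 genes (red squares); dashed lines mark 1.5-fold. Scnn1b at 1.22 and Scnn1g at 0.64 lie above the upper line, Trpv4 and Slc12a7 below the lower one.

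The genes whose levels ran most like those of the 8 were sought over 10 points, the 5 urothelium-like clusters in each library, among 9734 genes. The points share clusters and libraries, so the correlations only describe them. Scnn1b ran most like Pycard (Pearson r 0.836), Pon3 (0.807) and Scnn1g (0.803), and Scnn1g most like Gsta2 (0.928), Hgsnat (0.908) and Scamp5 (0.901). Scnn1a ran with neither, at r 0.0970 with Scnn1b and -0.318 with Scnn1g, at UMI counts too low to read more from. Its own nearest genes were Dpm1 (0.931), Gab1 (0.930) and Ap3s2 (0.918), and those of Hsd11b2 were Egfl7 (0.947), Ik (0.924) and Ddah2 (0.915), a pair of genes too low in UMIs for these values to be a finding.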

How the data were processed

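The authors deposited raw UMI counts for each nucleus and gene. Per the submitters' processing notes they used STARsolo with STAR 2.7.11a, build mm10, R 4.0.5 and Seurat 4.0.5. What each did, the annotation, the use of strand and the counting of introns: not given in the sources used here. Coordinates come from GENCODE M21 (GRCm38).

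A nucleus was kept if it had at least 300 genes and no more than 5% of its UMIs from mitochondrial genes (5491 DNp63cKO and 8889 control). Scrublet's automatic threshold marked 0% as doublets and so had not worked; the top 5% by score were removed (319 DNp63cKO and 516 control). Leiden clustering (scanpy 1.11.5, resolution 1.0, 2000 variable genes, 30 components, 15 neighbours) left out the 8 genes and the wider list. Clusters were named by the marker list with the highest mean log2 fold against the median over clusters, with 3 or more markers at 50 CPM and a score over 0.1. That reference, and the check against other classes that cluster 2 passed, were chosen after seeing the data. Cluster 14 (232 nuclei) stayed unnamed.

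For each class and library, UMIs were summed and scaled to the total of that sum. Genes with 50 or more UMIs over both libraries count as measured, and 1.5-fold is a size, not a test. Intervals are exact at 95% and, like the limit that a count of 0 allows (3 counts), cover counting error only. The scripts were tested on simulated data. Members and lists were chosen with earlier results of these data known. Named genes are the 8, layer and other-type markers beside a result, list genes past 1.5-fold, up to 2 of the genes of highest mean CPM in each list group, and the 3 most similar genes of each channel subunit and of Hsd11b2. Nr3c2, Nr3c1, Prss8, Furin, St14, Spint1, Spint2, Trpm7, Atp1b3, Cog7, Nme7, Krt5 and Krt14 were named for their role after their values were seen. A list gene that the rule names is not reported here.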

Additional observations from a re-analysis of the deposited data

Results flagged for a closer look

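For 3 of the genes the direction of the difference between DNp63cKO and control was opposite, or absent, in different urothelial layers. The Scnn1b log2 ratio was 1.73 in superficial-like and -0.15 in basal-like nuclei. That of Scnn1g was 0.81 in superficial-like and -0.17 in basal-like nuclei, and that of Sgk1 was 0.071 in superficial-like and -0.81 in basal-like nuclei. The basal intervals of Scnn1b and Scnn1g and the superficial interval of Sgk1 span 0. Whether the layers differ from each other was not tested, because each group has 1 library. Most superficial-like nuclei of the libraries lie in different clusters, and superficial-like nuclei have a median of 1642 UMIs in DNp63cKO and 2353 UMIs in control.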

How the results depend on the processing

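No paired analysis was possible because each group has 1 library, and no library could be left out for the same reason. Over 13 alternative settings and 4 chosen after seeing the data, the log2 ratio in urothelium-like nuclei ran between 0.06 and 1.39 for Scnn1b, -0.06 and 0.82 for Scnn1g, -0.59 and -0.23 for Aqp3, 0.28 and 0.77 for Atp1b1, and -0.69 and -0.07 for Sgk1. Scnn1b and Aqp3 kept their sign in all 17, and Scnn1g in 15. Scnn1g was past 1.5-fold in 12 of the 17 and lost it, at 0.28, in nuclei with Y-linked UMIs and none of Xist. Calls were gained there by Atp1b1 (0.71), with estimated free RNA subtracted by Atp1b1 (0.77), and by Sgk1 in nuclei with Xist and no Y-linked UMIs (-0.59) and in thinned nuclei (-0.69). The 2 genes past 1.5-fold became 0 without doublet removal (Scnn1b 0.33, Scnn1g 0.03; 2 clusters of 1354 nuclei in all then failed the naming check and left the class), 0 with the cluster shares of the control, and 0 without cluster 2, where Scnn1g reversed to -0.064. Without clusters over 80% from 1 library the count was again 2 but of other genes, Aqp3 at -0.59 and Sgk1 at -0.69, both lower, and Scnn1g reversed to -0.030; both superficial clusters are then gone. Thinned sums rest on 1 random draw. Of the transport list 1 gene was past 2-fold, against 4 past 1.5-fold. Counts by class and layer stayed within 1.5 times under the settings run. For superficial-like and cycling nuclei this was fixed in advance, because no setting changed the nuclei. Layer markers that do not differ between libraries gave every urothelium-like cluster the same layer. The setting without clusters mostly from 1 library left no superficial-like nuclei, kept all cycling nuclei, and changed only the basal-like ones. Scaling by the median of ratios moved all genes by 0.00015. Depth limits Scnn1a and Hsd11b2, at 36 and 23 urothelial UMIs in DNp63cKO and 73 and 19 in control.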
